A study of Homo sapiens with 6 samples.

Results

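Kinesins are motor proteins that use ATP to walk along microtubules or to take their ends apart. Of the 62700 gene IDs in the count tables, 42 were protein-coding genes whose symbols begin with KIF or KIFC followed by a number, and these make up the kinesin family described here. A further 3 matching symbols (KIF4CP, KIF19BP and KIF28P) belong to pseudogenes and were left out. The family was divided into 12 mitotic kinesins (KIF2C, KIF4A, KIF11, KIF14, KIF15, KIF18A, KIF18B, KIF20A, KIF20B, KIF22, KIF23 and KIFC1) and the other 30. All 12 mitotic genes and 26 of the other 30 had enough counts to be tested, 38 in all.

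The RNA came from OVCAR8, an established human ovarian carcinoma cell line, labelled wild type in every sample. The cells had been starved of serum overnight and then received PBS (control, 3 libraries) or the hormone leptin at 100 ng/ml for 24 h (leptin, 3 libraries). All libraries come from this 1 cell line, and the labels do not say whether replicates were separate cultures, so the tests see only how these libraries vary, and that variation may be technical. The labels do not give the length of the PBS treatment separately.

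Library totals lay between 15609425 and 18577775 read pairs assigned to genes. The ovarian lineage factor gene PAX8 stood between 354 and 370 CPM (read pairs scaled to library size by TMM, the level unit used throughout) and the keratin gene KRT8 between 2005 and 2430 CPM, whereas MUC16 and MSLN stayed at or below 0.713 CPM in every library. Other markers of the ovarian list moved: KRT19 fell from 93.7 to 113 CPM in controls to 38.0 to 39.8 CPM with leptin (log2 fold change -1.40 ± 0.11, adjusted p by edgeR = 0.000139). KRT7 stood at 281 to 360 CPM in controls and at 283, 744 and 615 CPM in leptin replicates 1, 2 and 3 (adjusted p by edgeR = 0.166). Immune cell markers PTPRC, CD3E and MS4A1 had 0 counts in all 6 libraries. The 7 immune markers summed to 1.69 to 2.49 CPM in controls and 2.61 to 4.84 CPM with leptin. Nearly all of this sum was CSF1R, at 1.58 to 2.42 CPM in controls and 2.49 to 4.61 CPM with leptin (adjusted p by edgeR = 0.13). The 7 fibroblast markers summed to 468 to 663 CPM in controls and 358 to 522 CPM with leptin, of which COL1A1 made up 352 to 645 CPM. Within that list 1 gene changed: POSTN fell from 4.801 to 6.85 CPM to 0.404 to 0.802 CPM (log2 fold change -3.17 ± 0.32, adjusted p by edgeR = 0.0011). DCN and PDGFRB, at or below 2.71 CPM, had log2 fold changes of -2.11 and 1.19 (adjusted p by edgeR = 0.0658 and 0.0684). The part of these markers in the results was not tested. Leptin replicate 1 stood apart from leptin replicates 2 and 3. It lay at -2.15 on the first principal component, with the controls between -30.99 and -23.64 and the other leptin libraries at 39.61 and 46.33.

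During cell division, kinesins push spindle poles apart, move and align chromosomes, shorten microtubules and build the midzone at which the daughter cells separate. Genes for these motors are transcribed mostly in late S, G2 and M phase, and their transcripts are scarce in resting cells. Many other kinesins carry vesicles, mitochondria, messenger RNA and ciliary cargo in cells whether or not they divide. The list of other kinesins also holds KIF4B, a near-identical copy of mitotic KIF4A. It holds KIF2A, KIF2B and KIF24 too, of the same kinesin-13 class as mitotic KIF2C. Many genes of late cell cycle carry in their promoters a cell cycle homology region (CHR), to which repressor and activator complexes of the DREAM and MuvB type bind, with CCAAT boxes, the binding sites of NF-Y, a short distance upstream.

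Promoters of 4 members are shown first, for these elements. The windows run from 250 bases before to 50 bases after the RefSeq start of each gene (GRCh38.p14), 300 bases in all, written in the direction of transcription. Below are the 3 mitotic kinesins with the largest falls and KIF12, the other kinesin with the smallest adjusted p. Capitals mark the CCAAT box and both CHR forms searched, of which one reads TTTGAA and the other reads TTTAAA. All were searched on both strands, so a box on the opposite strand shows as its reverse complement.
KIF20A, chr5:138178862-138179161, plus strand: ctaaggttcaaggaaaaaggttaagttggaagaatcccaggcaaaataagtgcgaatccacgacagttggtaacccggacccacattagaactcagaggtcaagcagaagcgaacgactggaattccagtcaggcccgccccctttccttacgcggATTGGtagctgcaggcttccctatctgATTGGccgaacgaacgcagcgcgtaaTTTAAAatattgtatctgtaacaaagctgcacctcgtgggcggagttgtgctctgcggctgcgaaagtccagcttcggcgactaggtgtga
KIF11, chr10:92592880-92593179, plus strand: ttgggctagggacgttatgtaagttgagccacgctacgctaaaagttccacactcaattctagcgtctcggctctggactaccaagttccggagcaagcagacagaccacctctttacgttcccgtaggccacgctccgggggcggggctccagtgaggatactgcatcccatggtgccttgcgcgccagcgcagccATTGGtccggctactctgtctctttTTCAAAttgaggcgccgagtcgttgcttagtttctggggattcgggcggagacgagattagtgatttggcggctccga
KIF23, chr15:69414099-69414398, plus strand: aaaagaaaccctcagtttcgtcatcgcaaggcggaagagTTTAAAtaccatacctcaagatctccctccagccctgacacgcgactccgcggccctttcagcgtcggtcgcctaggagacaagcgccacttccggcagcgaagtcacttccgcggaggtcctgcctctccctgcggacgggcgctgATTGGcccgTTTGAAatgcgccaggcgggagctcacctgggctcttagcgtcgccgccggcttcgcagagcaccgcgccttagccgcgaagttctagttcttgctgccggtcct
KIF12, chr9:114099243-114099542, minus strand: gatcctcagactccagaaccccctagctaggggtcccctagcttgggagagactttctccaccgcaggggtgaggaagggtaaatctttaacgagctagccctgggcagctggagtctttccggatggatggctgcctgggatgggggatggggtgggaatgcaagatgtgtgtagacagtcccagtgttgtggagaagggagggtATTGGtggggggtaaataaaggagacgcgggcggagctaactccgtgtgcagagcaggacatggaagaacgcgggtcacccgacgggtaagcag

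In KIF20A a pair of CCAAT boxes begins at -94 and -67 and TTTAAA at -41, counted from the start at 1 with no position 0. KIF11 has a CCAAT box at -53 and the CHR form TTTGAA at -28, both on the opposite strand, and KIF23 has TTTAAA at -211, CCAAT at -64 and TTTGAA at -55. KIF12 has a CCAAT box at -44 and neither CHR form. The CCAAT boxes of KIF20A, KIF23 and KIF12 are on the opposite strand too.

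A window was found for 34 of the 42 genes, including all 12 mitotic kinesins, and the first window listed per gene was used. No window was found for KIFC2, KIFC3 and KIF26B, which rose with leptin (below). Some windows lie inside the span counted for the gene, among them those of KIF11, KIF1A, KIF5C and KIF7. Either CHR form, on either strand, occurred in 11 of 12 mitotic kinesin windows and in 3 of 22 windows of other kinesins (KIF4B, KIF5B and KIF16B), beside 24.3% of all 27305 gene windows. The exception among the mitotic genes was KIF22. A CCAAT box together with either form was found in 9 of 12 mitotic windows and 2 of 22 others, KIF4B and KIF5B, beside 9.49% of all windows. CCAAT was found in 10 of 12 mitotic windows, 7 of 22 others and 35.7% of all. The E2F core form GGCGGGAA was found in 0 of the 34 kinesin windows, beside 3.18% of all. These are matches of letters and were not tested for binding or for a link to the counts.

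Per unit of annotated exon length, the mitotic kinesins ranged from the most abundant member to the middle of the family. This length takes in all annotated exons of a gene, 33151 bases for KIF5C. Levels, ranks and shares per unit length therefore also depend on the annotation. In RPKM (CPM per kilobase of annotated exon), the minus-end motor KIFC1 was first in controls at 40.0 ± 1.39 (mean ± SD, n = 3), followed by the ubiquitous cargo motor KIF5B at 36.8 ± 0.237 and the transport motor KIF1C at 36.0 ± 3.15. The gap between KIFC1 and KIF5B was larger than both SDs, whereas KIF5B and KIF1C did not differ beyond their spread. The microtubule depolymerase KIF2C followed at 31.5 ± 0.465 and KIF18B at 28.9 ± 3.09, which again overlapped within their spread. KIF20A stood at 20.4 ± 1.05, the kinesin-2 gene KIF3C at 17.5 ± 1.77 and KIF4A at 15.96 ± 0.884 RPKM. The mitotic genes of lowest level were KIF18A, KIF20B, KIF15 and KIF14, from 4.59 for KIF18A down to 3.43 RPKM for KIF14, at ranks 21, 23, 24 and 25 of the 42. At the other end, the testis gene KIF2B had 0 counts in every library. A count of 0 allows up to 3 counts, or 0.158 to 0.2005 CPM. KIF19 had 1 count in all 6 libraries together, and the neuronal KIF5A had 0 to 8 and KIF4B 1 to 10 counts per library, and none of these 4 genes was tested. KIF4B is a near-identical copy of KIF4A, and pairs that map to both were not counted.

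Of the 38 tested kinesins 13 changed (adjusted p under 0.05), where 9.81% of the 15685 tested genes did. With leptin the mitotic kinesins were lower. Of the 12, 8 fell (edgeR's quasi-likelihood test, adjusted p under 0.05) and 0 rose, where 4.09% of tested genes fell and 5.71% rose. The log2 fold change was below 0 in all 12 and its median was -0.63, where the median over all tested genes was 0.01. In 11 of the 12 every leptin library lay below every control, which held for 16.2% of tested genes. The list was drawn up with earlier results of these libraries known, so these counts are a description of the list. In RNA from whole cultures, fewer dividing cells and less of each transcript per dividing cell cannot be told apart.

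**Figure D1:**
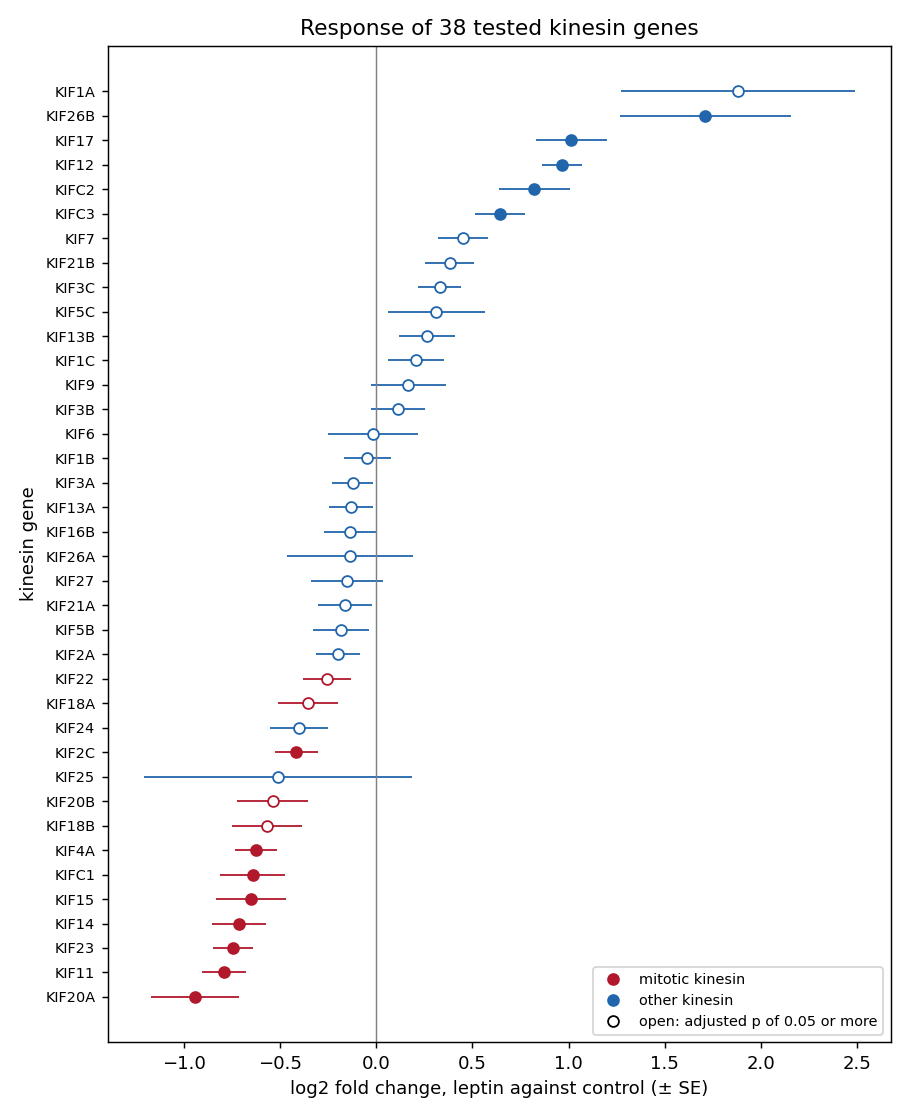
Log2 fold change with its standard error for the 38 tested kinesin genes, sorted by size. Filled points passed edgeR at an adjusted p under 0.05: the 8 filled mitotic genes (red) all lie below 0 and the 5 filled other genes (blue) all lie above it.

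Both plus-end motors that separate the poles fell. KIF11, which slides antiparallel microtubules apart, stood at 47.4, 50.9 and 46.6 CPM in control replicates 1, 2 and 3 and at 26.8, 31.1 and 25.8 CPM in leptin replicates 1, 2 and 3. All leptin libraries were well below all controls, leptin replicate 1 included, and the log2 fold change was -0.79 ± 0.12 (SE; adjusted p by edgeR = 0.00431). KIF15, which can take over part of the work of KIF11, went from 22.7, 20.3 and 21.1 CPM to 17.5, 13.03 and 10.2 CPM. The groups did not overlap, but the leptin libraries were spread widely and the call was a narrow one (log2 fold change -0.65 ± 0.18, adjusted p by edgeR = 0.0463). With upper-quartile scaling KIF15 did not pass (adjusted p by edgeR = 0.0501). KIF11 lies on chromosome 10 (92574105 to 92655395, hg38, plus strand) and KIF15 on chromosome 3 (44761721 to 44873376, plus strand).

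KIFC1, which pulls towards microtubule minus ends and gathers extra centrosomes into a pair of poles, stood at 118, 120 and 126 CPM in controls. With leptin it was 103, 61.3 and 68.9 CPM, so that replicate 1 lay close below the controls and the other replicates far below. Its log2 fold change was -0.64 ± 0.17 (adjusted p by edgeR = 0.0378; chromosome 6, 33391823 to 33409896, plus strand).

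The motors of the midzone and of cytokinesis included the largest fall in the family. KIF20A, which brings the chromosomal passenger complex to the midzone, went from 79.1, 74.2 and 82.2 CPM to 60.4, 30.4 and 31.5 CPM (log2 fold change -0.94 ± 0.23, adjusted p by edgeR = 0.0318). The groups did not overlap, and leptin replicate 1 lay between the controls and the other leptin libraries. KIF20A (chromosome 5, 138178719 to 138187723, plus strand) shares 132 exon bases with BRD8 and 74 with CDC23 on the opposite strand, 3.43% and 1.92% of its exon length, and pairs there were not counted.

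KIF23, the motor subunit of the centralspindlin complex, varied little within each group. It stood at 80.3, 78.2 and 79.0 CPM in controls and at 51.1, 44.8 and 45.8 CPM with leptin (log2 fold change -0.74 ± 0.10, adjusted p by edgeR = 0.00401; chromosome 15, 69414246 to 69448427, plus strand). KIF14, needed for the last steps of cytokinesis, went from 25.3, 25.3 and 24.5 CPM to 15.6, 17.3 and 12.9 CPM (log2 fold change -0.71 ± 0.14, adjusted p by edgeR = 0.0131; chromosome 1, 200551497 to 200620751, minus strand). In KIF11 and KIF14 leptin replicate 2 was the highest of the leptin libraries, whereas in the other 10 mitotic kinesins it was leptin replicate 1.

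Chromosome-bound KIF4A, which also sets the length of midzone microtubules, went from 77.5, 71.8 and 69.7 CPM to 51.9, 46.6 and 43.5 CPM (log2 fold change -0.62 ± 0.11, adjusted p by edgeR = 0.00929; chromosome X, 70290104 to 70420886, plus strand). KIF2C, which shortens microtubules at kinetochores to correct wrong attachments, went from 117, 114 and 114 CPM to 95.8, 86.9 and 75.8 CPM. This was the smallest of the 8 falls (log2 fold change -0.42 ± 0.11, adjusted p by edgeR = 0.0416; chromosome 1, 44739818 to 44767767, plus strand). In both genes each leptin library was below each control.

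**Figure D2:**
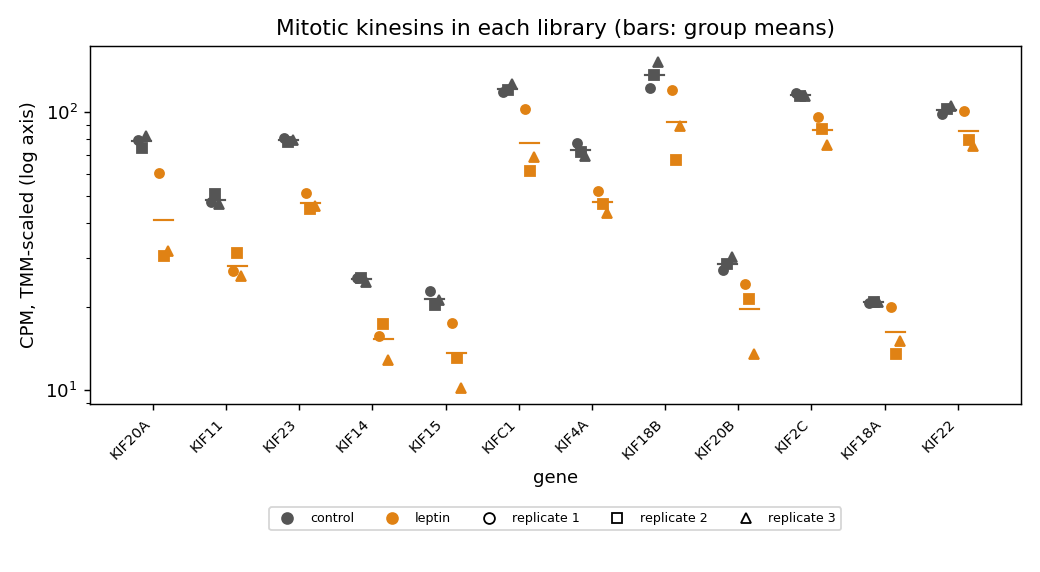
CPM of the 12 mitotic kinesins in each library on a log axis, with controls in grey, leptin in orange, 1 symbol per replicate and bars at group means. Leptin replicate 1 (circles) is the highest leptin library in 10 of the 12 genes, and in KIF18A, KIF18B and KIF22 it lies next to the controls.

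The remaining 4 mitotic kinesins did not pass. KIF18B, which acts on the plus ends of astral microtubules, stood at 122, 136 and 151 CPM in controls and at 119, 67.0 and 88.7 CPM with leptin (log2 fold change -0.57 ± 0.18, adjusted p by edgeR = 0.0694). Its relative KIF18A, which damps the swings of chromosomes at the spindle equator, stood at 20.7, 20.7 and 20.8 CPM and then 19.9, 13.6 and 15.02 CPM (log2 fold change -0.36 ± 0.16, adjusted p by edgeR = 0.166). The controls of KIF18A were almost equal, and leptin replicate 1 was just below them. The cytokinesis motor KIF20B had 26.99, 28.5 and 30.1 CPM in controls and 24.1, 21.3 and 13.5 CPM with leptin (log2 fold change -0.54 ± 0.18, adjusted p by edgeR = 0.0869). KIF22, which pushes chromosome arms away from the poles, had 98.5, 102 and 105 CPM and then 101, 79.5 and 75.2 CPM (log2 fold change -0.26 ± 0.12, adjusted p by edgeR = 0.213). It was the 1 mitotic kinesin whose groups overlapped, through leptin replicate 1.

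Genes that work with these motors were lower too. Of 15 partners of mitotic kinesins, all tested, 9 fell and 0 rose, where 4.09% of all tested genes fell and 5.71% rose. The 15 log2 fold changes were all below 0, with -0.60 as their median. CENPE, a kinetochore kinesin whose symbol lies outside the family's naming pattern, fell from 39.8, 38.9 and 46.7 CPM to 31.3, 23.1 and 23.9 CPM (log2 fold change -0.68 ± 0.14, adjusted p by edgeR = 0.017). ECT2, the exchange factor that binds centralspindlin, fell with a log2 fold change of -0.67 ± 0.10 and CDK1, the kinase that starts mitosis, with -0.67 ± 0.12 (adjusted p by edgeR = 0.00504 and 0.0104). HMMR, a spindle protein, fell by 1.17 on the log2 scale, and AURKA, a kinase of the spindle poles, by 0.66 (adjusted p by edgeR = 0.00953 and 0.0115). RACGAP1, the partner of KIF23, fell from 125 to 133 CPM in controls to 75.2 to 102 CPM with leptin (log2 fold change -0.59 ± 0.13, adjusted p by edgeR = 0.0178). PRC1, the midzone bundler that binds KIF4A, was counted at 0.653 to 2.34 CPM. It shares 57.6% of its exon bases with another annotated gene on its own strand, and pairs there were not counted. RACGAP1 and PRC1 were chosen after their values were seen. Of 6 proliferation markers 4 fell and 0 rose, where 4.09% of all tested genes fell: PCNA (log2 fold change -0.63 ± 0.11), TOP2A (-0.73 ± 0.14), CCNB1 (-0.56 ± 0.12) and MKI67 (-0.70 ± 0.17; adjusted p by edgeR between 0.00926 for PCNA and 0.0318 for MKI67). By edgeR 0 of the 6 passed when control replicate 1 or 3 was left out, where 0.371% and 0.548% of all tested genes fell. When control replicate 2 or leptin replicate 3 was left out 1 passed, where 0.946% and 0.748% of all tested genes fell.

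Among the 26 tested kinesins outside the mitotic list, 5 rose and 0 fell, where 5.71% of all tested genes rose and 4.09% fell. Their median log2 fold change was 0.14, with 14 positive and 12 negative. Leptin libraries lay above all controls in 9 of the 26 and below them in 2 (KIF3A and KIF24), where 16.0% and 16.2% of all tested genes did so. At an unadjusted edgeR p under 0.05 there were 10 of these 26 genes, against 27.6% of all tested genes.

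The firmest rise was that of KIF12, a kinesin known from kidney and other epithelia. It stood at 32.8, 33.4 and 32.2 CPM in controls and at 68.7, 59.6 and 63.9 CPM with leptin. Both groups were tight and far apart (log2 fold change 0.97 ± 0.11, adjusted p by edgeR = 0.00141; chromosome 9, 114086126 to 114099292, minus strand), and leptin replicate 1 was the highest library. KIF17, a kinesin-2 motor of dendrites and cilia, showed the same order of size at a lower level, from 4.90, 4.60 and 4.50 CPM to 9.92, 10.4 and 8.08 CPM (log2 fold change 1.02 ± 0.18, adjusted p by edgeR = 0.00983; chromosome 1, 20664014 to 20718017, minus strand).

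A pair of minus-end motors of the kinesin-14 class rose, opposite to their mitotic relative KIFC1. KIFC3, a motor of cell junctions and the Golgi, went from 126, 138 and 131 CPM to 169, 220 and 227 CPM (log2 fold change 0.64 ± 0.13, adjusted p by edgeR = 0.0142; chromosome 16, 57758217 to 57863053, minus strand). KIFC2, first described in neurons, went from 26.4, 31.7 and 29.3 CPM to 35.7, 54.6 and 64.1 CPM (log2 fold change 0.82 ± 0.19, adjusted p by edgeR = 0.0227; chromosome 8, 144466043 to 144474202, plus strand). In both, leptin replicate 1 was the leptin library nearest to the controls. KIFC2 shares 17.8% of its exon bases with FOXH1 on the opposite strand.

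KIF26B, a kinesin-like protein without motor activity that takes part in WNT5A signalling, had the largest rise that passed, at low counts. It had 10, 16 and 12 read pairs in controls and 24, 54 and 40 with leptin, or 0.527, 0.994 and 0.720 CPM against 1.38, 3.61 and 2.38 CPM (log2 fold change 1.71 ± 0.44, adjusted p by edgeR = 0.0373; chromosome 1, 245154985 to 245709432, plus strand). By limma-voom KIF26B did not pass (adjusted p by limma-voom = 0.0609). KIF1A, the motor of synaptic vesicle precursors, had 5, 6 and 3 read pairs in controls and 11, 27 and 11 with leptin. Its groups did not overlap, but its log2 fold change of 1.88 ± 0.61 did not pass (adjusted p by edgeR = 0.0732).

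**Figure D3:**
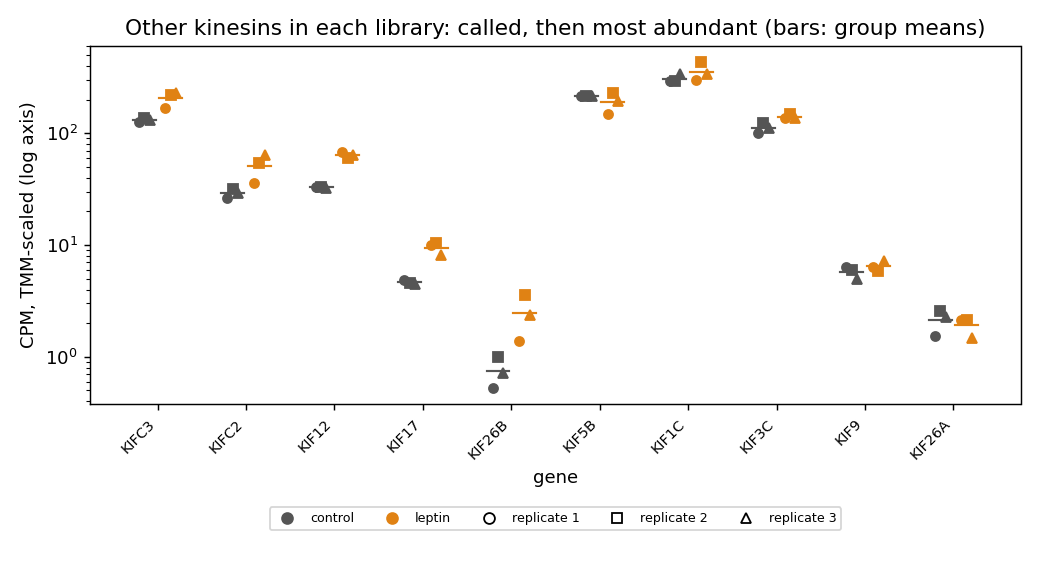
CPM of kinesins outside the mitotic list in each library on a log axis: the 5 genes that rose, then KIF5B, KIF1C, KIF3C, KIF9 and KIF26A, the most abundant genes per length of their subfamilies. Symbols and colours stand for replicates and groups and bars for group means; the 5 genes at the left have no overlap, while KIF5B, KIF1C, KIF9 and KIF26A overlap.

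The other 21 tested kinesins did not pass, with log2 fold changes between -0.51 for KIF25 and 1.88 for KIF1A. Of these, 12 lay within 0.2 of zero on the log2 scale. KIF25 rested on 3 to 17 read pairs per library, and the SE of its log2 fold change was 0.70. KIF5B, the widely expressed heavy chain of kinesin-1, stood at 217, 214 and 217 CPM in controls and at 148, 229 and 194 CPM with leptin. Leptin replicates lay on either side of the controls, and the log2 fold change was -0.18 ± 0.15 (adjusted p by edgeR = 0.454). KIF1C, a kinesin-3 motor of long-distance vesicle transport, had 291, 295 and 340 CPM and then 298, 433 and 339 CPM (log2 fold change 0.21 ± 0.15, adjusted p by edgeR = 0.390).

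Of the kinesin-2 motors that drive transport into cilia, KIF3A stood at 33.8, 34.2 and 35.9 CPM and then 33.2, 30.9 and 31.4 CPM (log2 fold change -0.12 ± 0.11, adjusted p by edgeR = 0.496). KIF3C, another kinesin-2 heavy chain, was 100.4, 123 and 112 CPM and then 137, 148 and 136 CPM (log2 fold change 0.33 ± 0.11, adjusted p by edgeR = 0.0818). Leptin libraries of KIF3C were all above the controls. KIF7, a ciliary regulator of Hedgehog signalling, came nearest to the threshold, at 16.3, 20.6 and 17.9 CPM and then 24.5, 24.1 and 26.3 CPM (log2 fold change 0.45 ± 0.13, adjusted p by edgeR = 0.0534). KIF7 shares 10.8% of its exon bases with TICRR on the opposite strand. The ciliary KIF9 and the kinesin-11 member KIF26A stayed at 4.92 to 7.19 CPM and 1.49 to 2.55 CPM over all libraries, with log2 fold changes of 0.17 ± 0.20 and -0.14 ± 0.33 (adjusted p by edgeR = 0.624 and 0.823).

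Genes that serve transport kinesins moved in either direction. Of 14 kinesin-1 and kinesin-2 accessory proteins, 2 rose and 1 fell, where 5.71% of all tested genes rose and 4.09% fell, and the median log2 fold change was 0.16. The kinesin light chain gene KLC3 rose from 10.97, 12.3 and 10.4 CPM to 19.7, 25.9 and 26.0 CPM (log2 fold change 1.09 ± 0.15, adjusted p by edgeR = 0.00407). MAPK8IP2, a scaffold that links kinesin-1 to JNK signalling, rose from 7.28, 9.26 and 7.08 CPM to 14.2, 23.7 and 20.7 CPM (log2 fold change 1.31 ± 0.20, adjusted p by edgeR = 0.00558). FEZ1, a cargo adaptor of kinesin-1, fell from 5.27, 6.09 and 6.24 CPM to 2.31, 3.88 and 2.85 CPM (log2 fold change -0.97 ± 0.24, adjusted p by edgeR = 0.0336). PLEKHM2, which joins lysosomes to kinesin-1, had a log2 fold change of 0.51 ± 0.15 (adjusted p by edgeR = 0.0535).

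Cytoplasmic dynein and dynactin, the machinery that runs the opposite way to most kinesins, had 0 of 24 tested genes past the threshold in edgeR, where 9.81% of all tested genes passed. At an unadjusted edgeR p under 0.05 there were 5 of the 24, where 27.6% of all tested genes were, and by DESeq2 1 passed, DYNC1I2. The median log2 fold change was -0.09, with 18 negative and 6 positive. Leptin libraries lay below all controls in 8 of the 24 and above them in 1, where 16.2% and 16.0% of all tested genes did so. The smallest adjusted p belonged to the intermediate chain gene DYNC1I2 (log2 fold change -0.41 ± 0.13, adjusted p by edgeR = 0.0665), followed by the dynactin gene DCTN6 (-0.42 ± 0.15, 0.0881).

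The makeup of the family's transcript pool differed between the groups. Summed over all 42 genes per unit length, kinesins made up 360, 370 and 378 RPKM in controls and 341, 347 and 321 RPKM with leptin. Mitotic kinesins held 51.6%, 50.4% and 51.0% of this sum in control replicates 1, 2 and 3 and 44.8%, 32.0% and 34.7% in leptin replicates 1, 2 and 3. The mitotic sum went from 185 to 193 RPKM down to 153, 111 and 111 RPKM, while the sum of the other 30 genes went from 174 to 185 RPKM up to 188, 236 and 210 RPKM. Leptin replicate 1 was nearest to the controls in both sums. These sums are over chosen members and were not tested.

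**Figure D4:**
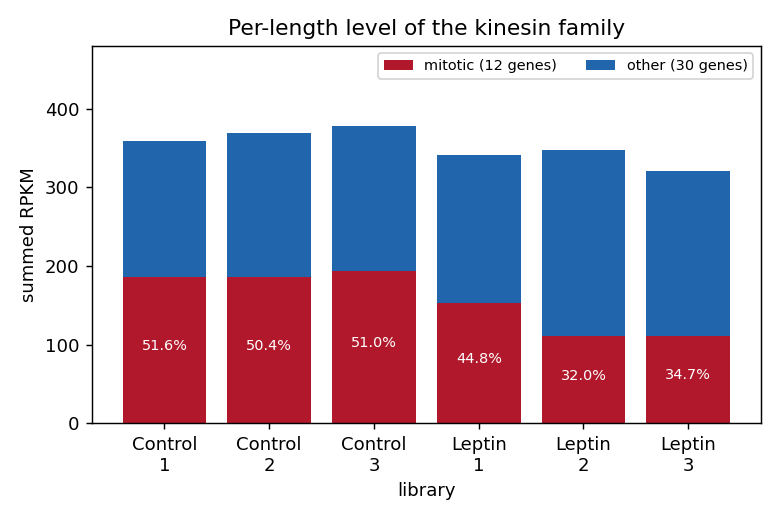
Stacked bars of summed RPKM per library for the 12 mitotic (red) and the other 30 (blue) kinesin genes, with the mitotic share printed as a percentage. The share lies between 50.4% and 51.6% in controls and between 32.0% and 44.8% with leptin.

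Close relatives were compared within each library, as the log2 ratio of their RPKM, in 5 pairs chosen after their values were seen. KIF15 to KIF12, both of the kinesin-12 class, was -1.32, -1.51 and -1.39 in controls and -2.76, -2.98 and -3.43 with leptin, a difference of -1.65. KIFC1 to KIFC3 was 1.57, 1.46 and 1.61 and then 0.94, -0.18 and -0.06, a difference of -1.31. Per unit of exon length KIFC3 thus stood above KIFC1 in leptin replicates 2 and 3 only. In CPM, not divided by length, KIFC3 was above KIFC1 in every library, controls included. KIF20A to KIF20B differed by -0.44. The groups did not overlap in these 3 pairs. KIF2C to KIF2A differed by -0.22 and KIF18B to KIF18A by -0.23, and in both the groups overlapped. Because of that choice, these differences are descriptions. An exact permutation test was run on each pair, but with 3 against 3 libraries its p cannot fall below 0.1. No conclusion is drawn from it. KIF2A shares 18.7% of its exon bases with DIMT1 on the opposite strand. The ratios were not adjusted for GC content (below). It was 41.2% in KIF15 and 63.5% in KIF12, and 57.9% in KIFC1 and 64.3% in KIFC3.

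Fold change moved with GC content in these libraries, and the family spans much of its range. Across the 15249 tested genes with known GC content, which are no independent units, Spearman's rho of GC content with log2 fold change was 0.39. It was 0.56 across the 38 tested kinesins, 0.19 within the 12 mitotic and 0.63 within the 26 others. The median GC content was 44.3% for mitotic and 52.2% for the other tested kinesins, beside 48.4% for all tested genes. The 5 that rose had 52.6% (KIF26B) to 68.1% (KIFC2), and the 8 that fell had 38.3% (KIF11 and KIF14) to 57.9% (KIFC1).

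After removal of every library's GC trend, 8 mitotic kinesins fell, where 2.82% of tested genes fell. KIF15 lost its call with a log2 fold change of -0.53 (adjusted p by edgeR = 0.103) and KIF18B gained one (log2 fold change -0.73, adjusted p by edgeR = 0.0372). The median of the mitotic list became -0.56. Spearman's rho with GC content was then 0.01 across all tested genes but 0.36 across the tested kinesins (mitotic -0.41, others 0.43). Of the 5 rises only that of KIF12 still passed (log2 fold change 0.63, adjusted p by edgeR = 0.0193), where 2.72% of tested genes rose. KIF17 and KIF26B had log2 fold changes of 0.69 and 1.69 (adjusted p by edgeR = 0.0701 and 0.0523), and KIFC2 and KIFC3 of 0.27 and 0.25 (adjusted p by edgeR = 0.187 and 0.139).

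**Figure D5:**
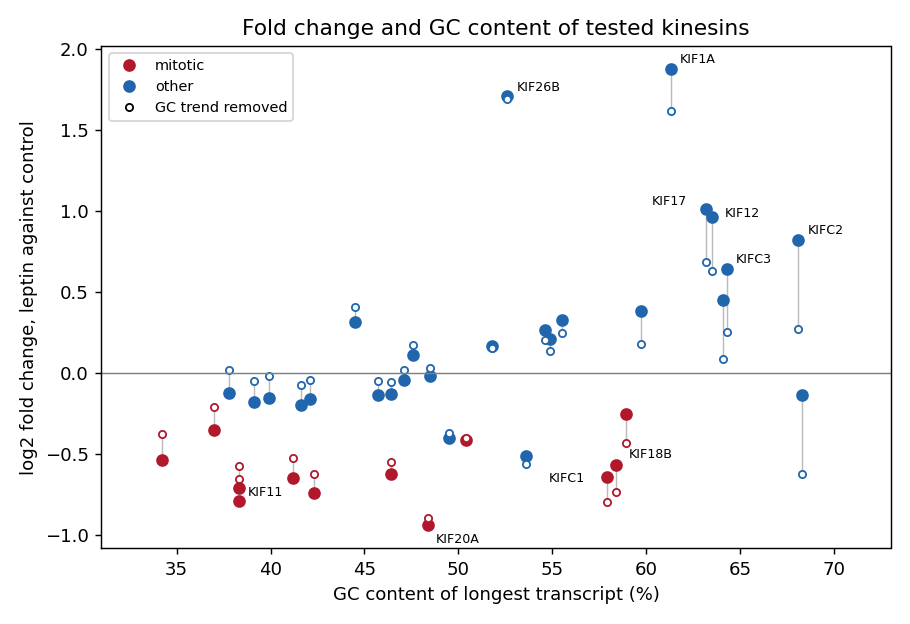
Log2 fold change against GC content of the longest transcript for the 38 tested kinesins, as tested (filled) and after removal of that trend (small open points, joined by a line). The values of KIF12, KIF17, KIFC2 and KIFC3, with over 63% GC, drop towards 0 on removal, whereas KIFC1 and KIF18B move further below 0.

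Many of these calls changed when 1 library was left out, as did calls over all tested genes. Of the 13 kinesins that passed, leaving out control replicate 1, 2 or 3 left 3, 4 and 3, and leaving out leptin replicate 1, 2 or 3 left 13, 7 and 5. Calls over all tested genes fell from 1538 to 115, 366 and 170 without control replicates 1, 2 and 3. They numbered 4761, 788 and 268 without leptin replicates 1, 2 and 3. KIF11, KIF23 and KIF12 passed in all 6 leave-outs (highest adjusted p by edgeR = 0.0464, 0.0464 and 0.0256). KIF4A passed in 4, KIF17 in 3, and KIF14 and KIFC3 in 2. KIF15, KIF20A, KIF2C, KIFC1, KIFC2 and KIF26B passed in 1 alone, that without leptin replicate 1. Without that library all 12 mitotic kinesins fell, and 9 others rose while KIF24 fell, when 13.5% of tested genes fell and 16.0% rose. KIF20A then had a log2 fold change of -1.35 and KIFC1 of -0.91. All 13 kept the sign of their change in every leave-out.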

How the data were processed

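RNA of 3 PBS-treated and 3 leptin-treated OVCAR8 samples was sequenced as paired ends, from a directional kit per the labels' protocols. The deposited values are raw counts of read pairs per gene. Per the file headers, the authors counted them with featureCounts 2.0.1 over GENCODE release 44 exons, and no option was set for strand, for reads mapping to several places or for those overlapping several genes. This lowers counts of overlapping genes and near-identical copies. The submitters' processing notes name hg38, HISAT2 2.0.5, DESeq2 and featureCounts 1.5.0-p3. Trimming is not given in the sources used here. The tables held 0 other columns of per-sample values.

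Symbols came from a table of gene names (all 62700 IDs matched) and gene types and GC content from GENCODE release 29, with RefSeq types by symbol where missing. Groups were compared with edgeR 4.0.16 in R 4.3.3: filterByExpr (minimum count 10, minimum total 15), TMM, robust quasi-likelihood fits, Benjamini-Hochberg adjustment over 15685 tested genes and a threshold of 0.05. Each standard error is the log2 fold change divided by the root of its F. RPKM divides CPM by annotated exon length. GC trends were removed by lowess (span 0.3) on log2 CPM (prior count 2) and entered as offsets. GC content was known for 97.2% of tested and 99.2% of called genes. Alternatives used DESeq2 1.42.0, limma-voom (limma 3.58.1), other scalings, filters and thresholds, a replicate block and leave-outs. Chi-square per gene was 5.24 to 5.61 between control replicates and 19.2 to 45.4 between leptin replicates, above sampling noise in both. Each fit assumed the same spread in both groups. The limit of a count of 0 was 3 counts, for counting error only.

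The members and gene lists were chosen with earlier results of these data known. Members to be named with values were the mitotic kinesins, others past the threshold and the most abundant gene per length of each subfamily. The rest were to be given by counts and ranges. Of each other list up to 4 genes with the smallest adjusted p were to be named, and CENPE. RACGAP1, PRC1 and the cell markers PAX8, KRT8, MUC16, MSLN, PTPRC, CD3E and MS4A1 fall outside this rule and were chosen after their values were seen. The same holds for KIF1A, KIF2A, KIF3A, KIF7 and KIF25. Promoter windows are from RefSeq (GRCh38.p14). Protein sequences were not used here.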

Additional observations from a re-analysis of the deposited data

How the results depend on the processing

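Depth limits the members at low level: KIF26B, KIF1A and KIF25 rest on 3 to 54 read pairs per library, and the 4 untested kinesins had at most 10. The counts of calls varied as follows. All tested genes called numbered 1538, and 2437 with no filter on low counts, 274 at the stricter threshold of 0.01, 868 after removal of the GC trend, 942 with the GC trend removed and a replicate block, and 115 (without control replicate 1) to 4761 (without leptin replicate 1) when 1 library was left out. By DESeq2 there were 2250. At an adjusted p under 0.01 the mitotic kinesins that fell numbered 3, the other kinesins that rose 2 and the called partners of mitotic kinesins 2. The other kinesins that rose numbered 1 with the GC trend removed and 2 with the replicate block as well. Called accessory proteins of kinesin-1 and kinesin-2 numbered 5 by DESeq2 and 5 with no filter, and called dynein and dynactin genes 1 in each. Over the leave-outs of 1 library, falls of mitotic kinesins ranged from 2 to 12, falls of other kinesins from 0 to 1, rises of other kinesins from 1 to 9, called partners from 0 to 15, proliferation markers from 0 to 6, accessory proteins from 1 to 8, and dynein and dynactin genes from 0 to 6. Leave-outs test fewer libraries. The medians of both kinesin lists moved by less than the spread between leptin libraries in every alternative, and no named gene past the threshold changed direction under any alternative run. Same-numbered libraries did not deviate together (correlations -0.05, 0.01 and -0.11), so the numbers were not taken as pairs. With the replicate block 1303 genes passed, 7 mitotic kinesins fell (KIF2C lost its call) and 5 others rose.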
